A study of Homo sapiens with 14 samples.

Results

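Chromatin modifier and remodeller genes were followed through knockdown of YAP and TAZ, knockdown of BRD genes and treatment with the BET inhibitor JQ1 in MDA-MB-231, a long-established line of human breast cancer. The genes were taken by symbol from the deposited expression table: every row that starts with KDM, HDAC, SMARC, SETD, ARID, CBX or EZH, or that is KAT or CHD followed by a digit. That gave 88 of 13734 genes, made up of 17 KDM, 11 HDAC, 13 SMARC, 12 SETD, 9 ARID, 8 CBX, 2 EZH, 7 KAT and 9 CHD genes. An antisense row, KDM4A-AS1, was left out, and no measured value entered the rule. There were 14 libraries of total RNA depleted of ribosomal RNA, 2 in each of 7 groups. Cells received control siRNA, siRNA mix 1 or mix 2 against YAP/TAZ for 48 h, siRNA mix A or mix B against the BRD genes for 72 h, DMSO, or 1 µM JQ1 for 24 h. The labels give no time for control siRNA or DMSO, and all groups share 1 cell line, so the results describe that line only. The series title asks what BET proteins do for genes under YAP/TAZ, and each perturbation was compared with its own control.

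The enzymes in these families write, read and erase marks on histones. Lysine demethylases (KDM) remove methyl groups, histone deacetylases (HDAC) remove acetyl groups, and SETD, EZH and KAT proteins add methyl or acetyl groups. CBX proteins bind methylated histones as parts of heterochromatin or Polycomb complexes, while SMARC, ARID and CHD proteins belong to ATP-driven complexes that move or evict nucleosomes. BET proteins, the targets of JQ1, bind acetylated histones, and YAP and TAZ are coactivators that reach DNA mainly through TEAD factors.

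Promoter sequence was looked at first, because the results below turn on genes that moved in opposite directions. RefSeq promoters (GRCh38.p14) were found for 74 of the 88 genes, and the 250 bases before each gene's start were searched on both strands. The letters TTTCCCGC, TTTGGCGC, TTTCGCGC or TTTGCCGC, which E2F factors of the cell cycle bind, were in 2 of 74 windows, EZH1 and KDM1B (2.7%, against 2.79% of 27305 promoters of the same length). The TEAD letters GGAATG were in 1 of 74 (1.35%, against 11.9%), and the AP-1 letters TGACTCA or TGAGTCA in 3 of 74 (4.05%, against 4.16%). The core of the hypoxia response element, ACGTG, was in 16 of 74 (21.6%, against 18.7%), where the palindrome CACGTG counts on both strands. None of these shares was tested, and a match describes letters, not a bound site. The windows of EZH1 (chr17:42745041-42745290, minus strand) and EZH2 (chr7:148884292-148884541, minus strand) are shown because this pair of Polycomb methyltransferases moved in opposite directions. Capitals mark the E2F letters, which are 115 bases before the start of EZH1 and absent from this window of EZH2.
EZH1: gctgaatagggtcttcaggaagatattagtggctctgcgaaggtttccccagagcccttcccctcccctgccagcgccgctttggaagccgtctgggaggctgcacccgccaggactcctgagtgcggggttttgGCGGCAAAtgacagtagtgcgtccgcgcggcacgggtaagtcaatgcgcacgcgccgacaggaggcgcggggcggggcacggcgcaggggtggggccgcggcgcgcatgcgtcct
EZH2: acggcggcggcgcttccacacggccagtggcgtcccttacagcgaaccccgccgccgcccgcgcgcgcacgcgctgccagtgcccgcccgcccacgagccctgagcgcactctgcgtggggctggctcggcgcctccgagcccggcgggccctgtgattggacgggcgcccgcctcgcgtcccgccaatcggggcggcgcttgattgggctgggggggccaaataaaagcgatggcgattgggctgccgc
The windows of KDM4B (chr19:4968863-4969112, plus strand) and KDM4C (chr9:6757723-6757972, plus strand) are shown because most KDM genes were higher in each comparison. Capitals mark ACGTG on either strand, with 2 matches for KDM4B and 4 for KDM4C. All of them lie in the palindrome CACGTG, which counts on both strands. These windows do not stand for the whole family, and a link to hypoxia was not tested.
KDM4B: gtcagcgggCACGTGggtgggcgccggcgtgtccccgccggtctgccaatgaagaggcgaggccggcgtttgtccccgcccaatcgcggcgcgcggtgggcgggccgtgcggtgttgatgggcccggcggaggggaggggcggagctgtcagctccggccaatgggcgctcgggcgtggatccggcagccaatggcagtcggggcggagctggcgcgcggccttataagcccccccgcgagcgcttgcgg
KDM4C: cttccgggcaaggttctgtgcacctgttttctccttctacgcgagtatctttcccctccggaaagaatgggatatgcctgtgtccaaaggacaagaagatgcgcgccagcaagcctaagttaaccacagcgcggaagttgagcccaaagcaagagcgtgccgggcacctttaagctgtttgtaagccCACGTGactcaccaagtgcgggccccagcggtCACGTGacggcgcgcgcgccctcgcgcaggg

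The deposited values are reads scaled by each library's effective size, called scaled RPM here, and do not correct for gene length, so levels are compared between libraries and not between genes. Depth ranged from 15741695 to 37311326 reads in genes. YAP1 fell by 3.02 and WWTR1, which encodes TAZ, fell by 3.10 on the log2 scale with YAP/TAZ siRNA. BRD2 fell by 0.53 and BRD3 fell by 1.58 with BRD siRNA, whereas BRD2 rose with JQ1 (log2 fold change 1.91). The targets also changed across perturbations: YAP1 fell by 0.85 with BRD siRNA (limma adjusted p 2.57e-11) and by 0.84 with JQ1 (adjusted p 3.36e-10). WWTR1 fell by 0.33 with JQ1 and had -0.12 with BRD siRNA (adjusted p 0.0582), while BRD3 was higher with JQ1 (0.28) and BRD2 and BRD3 with YAP/TAZ siRNA (0.18 and 0.17). The summed level of 20 proliferation markers was 4992 to 5294 with control siRNA, 1054 to 1758 with YAP/TAZ siRNA and 1589 to 2075 with BRD siRNA. It was 6613 to 6752 in DMSO and 1381 to 1395 in JQ1. All 20 markers passed the test downwards in each of the 3 comparisons (medians -2.06, -1.53 and -2.27), and their part in the results below was not tested. VIM, which marks this mesenchymal line, stood at 2894 or more in every library, but other mesenchymal markers moved. AXL stood at 1470 and 1431 with control siRNA, 353 and 378 with YAP/TAZ mix 1 and 673 and 738 with mix 2. CD44 stood at 162 and 146, 158.5 and 161, and 73.6 and 79.2 in that order, while FN1 was higher with both mixes. Mesenchymal markers, 4 of 5 with values, summed to 5299 to 5439 with control siRNA and 4293 to 5580 with YAP/TAZ siRNA. They summed to 4749 to 6541 with BRD siRNA, 6573 to 6714 in DMSO and 9520 to 9533 in JQ1. VIM, AXL and FN1 were higher in JQ1 than in DMSO, whereas CD44 went from 359 and 343 down to 194 and 208. Luminal markers, 7 of 10 in the table, summed to 1256 to 1320 with control siRNA, 2212 to 2335 with YAP/TAZ siRNA, 1230 to 1596 with BRD siRNA, 1385 to 1388 in DMSO and 5378 to 5856 in JQ1. The JQ1 sum was carried by KRT8, KRT18 and KRT19. AGR2 also rose there (5.51 and 5.08 in DMSO, 18.1 and 15.9 in JQ1). EPCAM fell from 18.3 and 18.6 to 6.9 and 6.99, and GATA3 and TFF3 stayed low in both groups. Leukocyte markers, 3 of 6 in the table, summed to 66.9 to 68.6 with control siRNA, 122 to 180 with YAP/TAZ siRNA, 37.8 to 42.5 with BRD siRNA, 69.3 to 70.6 in DMSO and 78.8 to 82.5 in JQ1. Fibroblast and endothelial markers, 3 of 5, summed to 9.64 to 13.5, 31.1 to 43.8, 7.37 to 12.9, 3.73 to 4.89 and 6.38 to 6.67 in the same order, while others, among them PTPRC, CD3E, DCN and VWF, were not analysed here. In such bulk libraries fewer cells of a kind and less RNA per cell cannot be told apart, and p-values measure the spread between libraries, which may be technical.

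Among the 88 genes, 41 were higher and 25 lower after YAP/TAZ siRNA against control siRNA (limma, adjusted p under 0.05), and 22 did not pass the test. Over all 13674 genes tested, 43.1% were called higher and 35.9% lower, against 46.6% and 28.4% of these genes. After BRD siRNA 29 were higher and 43 lower, which is 33% and 48.9% of the 88, with a background of 37.6% higher and 37.6% lower. After JQ1 against DMSO 33 were higher and 35 lower, which is 37.5% and 39.8%, with a background of 37.6% and 36.3%. The median log2 fold change, taken throughout on the log2(value + 1) scale, was 0.118, -0.148 and -0.0065 for the 88 genes against 0.0727, -0.00471 and 0.0117 for all genes. On this scale the change of a gene at low level is understated, which touches KDM4D, ARID3A, SMARCD3 and KDM8, the members with the lowest mean levels. The families differed in how their calls were split. KDM genes were mostly higher, and SETD genes were more often lower than higher, as SMARC genes were with BRD siRNA and JQ1. HDAC genes were mostly higher with YAP/TAZ siRNA, more often lower with BRD siRNA and almost evenly split with JQ1. No test was made of these shares, and the family and list counts below stand against the same background.

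**Figure D1:**
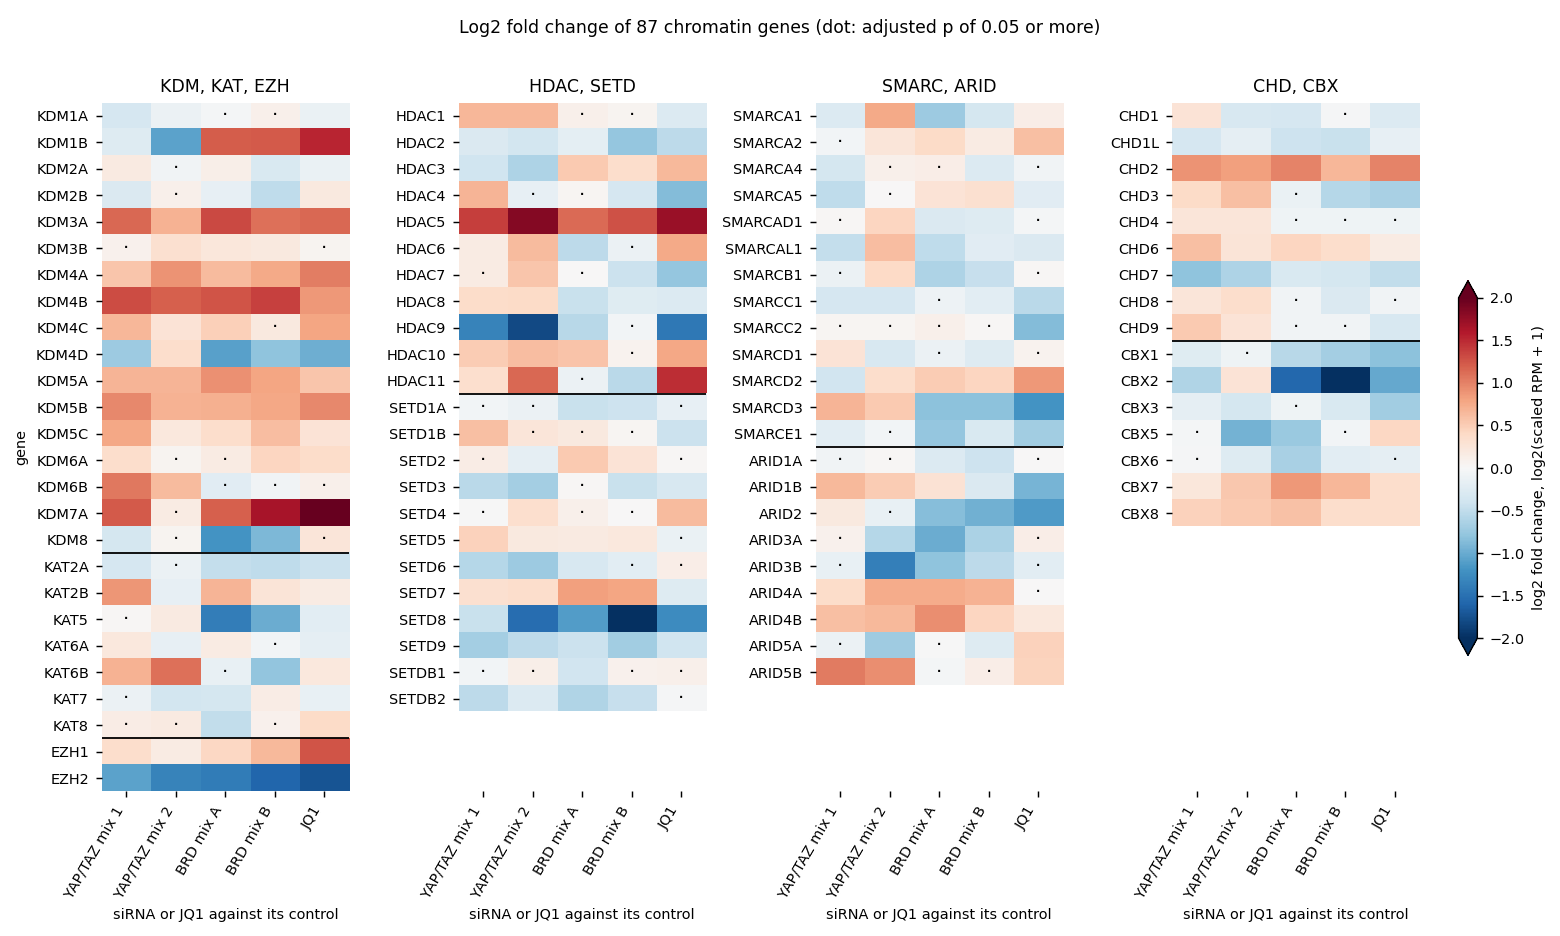
Heat map of the log2 fold change of 87 of the 88 genes (rows, by family) in each siRNA mix and in JQ1 against its control (5 columns), on the log2(value + 1) scale, with colours limited at 2 in either direction and a dot where the adjusted p was 0.05 or more. The KDM rows are mostly red in each column, while EZH2 and SETD8 are blue in each.

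Most demethylase genes were higher in each of the 3 comparisons. Of the 17 KDM genes, 11 were higher and 2 lower with YAP/TAZ siRNA (median log2 fold change 0.47), 11 higher and 3 lower with BRD siRNA (0.34), and 11 higher and 3 lower with JQ1 (0.37). The JmjC demethylases, which use iron and 2-oxoglutarate, accounted for this: 11 of 15 were higher and 0 lower with YAP/TAZ siRNA, 10 and 3 with BRD siRNA, and 10 and 2 with JQ1. With YAP/TAZ mix 1 alone 3 JmjC genes were lower and 11 higher, and with mix 2 alone 0 and 10. Over all genes 33.6% were lower and 40.6% higher with mix 1 alone, and 35.7% and 42.7% with mix 2 alone. The YAP/TAZ and BRD comparisons share their control libraries. Leaving out any 1 library left 10 or 11 of the 17 higher in each comparison. The KDM genes also differed between the controls: 12 of 17 were lower and 2 higher in DMSO than with control siRNA (background 25.4% lower and 28.7% higher). With DMSO in place of control siRNA as the reference, 12 were higher with YAP/TAZ siRNA and 12 with BRD siRNA. The lower DMSO levels push these counts up, so they are no separate check. JQ1 was compared with DMSO only. Its KDM levels lay on both sides of control siRNA, with KDM5B and KDM5C under it and KDM3A and KDM7A above it.

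KDM7A, which removes methyl groups from H3K9 and H3K27, stood at 5.17 and 5.06 with control siRNA, 13.9 and 12.8 with YAP/TAZ mix 1, 6.96 and 4.86 with mix 2, 13.8 and 12.2 with BRD mix A and 20.6 and 15.9 with mix B. It stood at 1.95 and 2.403 in DMSO and 12.9 and 13.8 in JQ1. Libraries of YAP/TAZ mix 2 overlapped the controls, whereas the other perturbed libraries lay above them. Its log2 fold change was 0.70 ± 0.118 (SE) with YAP/TAZ siRNA, 1.42 ± 0.118 (SE) with BRD siRNA and 2.18 ± 0.136 (SE) with JQ1 (limma adjusted p 1.74e-05, 7.03e-10 and 7.06e-12). With mix 2 alone the YAP/TAZ call was lost (0.16, adjusted p 0.283). The level in DMSO was itself lower than with control siRNA (-0.95, adjusted p 6.7e-06).

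KDM4B, a demethylase of trimethylated H3K9 and a gene known to be induced by hypoxia, stood at 21 and 26 with control siRNA against 56.6 and 62.3 with YAP/TAZ mix 1 and 55.1 and 54.1 with mix 2. With BRD siRNA it stood at 61.2 and 53.9 (mix A) and 61.5 and 61.8 (mix B), and it went from 19.4 and 17.6 in DMSO to 35.1 and 33.8 in JQ1. No perturbed library overlapped its controls, and the log2 fold changes were 1.25 ± 0.0751 (SE), 1.31 ± 0.0751 (SE) and 0.86 ± 0.0867 (SE) (limma adjusted p 2.75e-12, 1.66e-12 and 1.44e-08). KDM3A, which demethylates mono- and dimethylated H3K9 and is also known as hypoxia-induced, showed the same separation. It stood at 29.04 and 29.6 with control siRNA, 68.5 and 63.9 and 51.5 and 45.02 with the YAP/TAZ mixes, and 76.6 and 73.4 and 64.4 and 63.8 with the BRD mixes. In DMSO it stood at 24.4 and in JQ1 at 53.6 and 56.6, and the log2 fold changes were 0.92 ± 0.0592 (SE), 1.22 ± 0.0592 (SE) and 1.14 ± 0.0684 (SE) in the order of the comparisons above. The related enzymes KDM4A (0.73, 0.70 and 1.03) and KDM4C (0.47, 0.34 and 0.78) passed the test upwards in each comparison. For KDM4C the BRD call was lost without control replicate 2 (0.22, adjusted p 0.0986). KDM4D, at the lowest mean level of the 88 genes, went the other way: 1.92 and 2.65 with control siRNA, 0.758 and 0.336 and 0.850 and 0.895 with the BRD mixes, 2.82 and 2.48 in DMSO and 0.882 and 0.808 in JQ1. It fell by 0.95 with BRD siRNA and fell by 0.98 with JQ1. With YAP/TAZ siRNA it did not pass the test (-0.19, adjusted p 0.174), and its mixes lay on opposite sides of the controls at 1.01 and 0.937 and 3.31 and 3.03.

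All 3 KDM5 genes, whose products demethylate trimethylated H3K4, passed the test upwards in each comparison. KDM5B stood at 127 and 119 with control siRNA, 247 and 232 and 208 and 189.9 with the YAP/TAZ mixes, and 203 and 199 and 215 and 204 with the BRD mixes. It stood at 56.99 and 58.3 in DMSO, under every other library, and at 109.5 and 116 in JQ1, under the control siRNA libraries. Its log2 fold changes were 0.83 ± 0.0516 (SE), 0.74 ± 0.0516 (SE) and 0.95 ± 0.0596 (SE), while DMSO was lower than control siRNA by more than any of these rises (-1.08, limma adjusted p 8.66e-12). KDM5A changed by 0.68, 0.85 and 0.56, and KDM5C by 0.49, 0.48 and 0.27. The H3K27 demethylases were unlike each other. KDM6B, an inducible enzyme, rose with YAP/TAZ siRNA from 4.16 and 4.58 to 9.02 and 11.5 (mix 1) and 6.96 and 7.75 (mix 2), a log2 fold change of 0.85 ± 0.12 (SE). With BRD siRNA (-0.15, limma adjusted p 0.275) and JQ1 (0.10, adjusted p 0.511) it did not pass. KDM6A changed by 0.20, 0.29 and 0.37, all called higher, but without control replicate 2 the YAP/TAZ call was lost (0.14, adjusted p 0.151).

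The remaining JmjC genes moved less or in a single comparison. KDM3B rose with both knockdowns (0.20 and 0.21) and had a log2 fold change of 0.06 with JQ1 (limma adjusted p 0.363). KDM8 fell with BRD siRNA, from 5.01 and 5.36 to 1.85 and 1.57 (mix A) and 2.01 and 2.64 (mix B), a log2 fold change of -1.05 ± 0.112 (SE), and had -0.15 and 0.24 in the other comparisons (limma adjusted p 0.225 and 0.103). KDM2B, an H3K36 demethylase that also recruits Polycomb proteins to CpG islands, was lower with BRD siRNA (-0.33) and higher with JQ1 (0.19), the latter lost without DMSO replicate 1 (0.15, adjusted p 0.0859). KDM2A was called lower with JQ1 (-0.13), a call lost without DMSO replicate 1, DMSO replicate 2 or JQ1 replicate 2 (-0.12, -0.14 and -0.10; limma adjusted p 0.126, 0.0825 and 0.182).

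The flavin-dependent demethylases differed between the perturbations. KDM1B stood at 17.6 and 17.2 with control siRNA, fell to 15.01 and 13.8 with YAP/TAZ mix 1 and 7.13 and 8.44 with mix 2, and rose to 40.2 and 42.8 and 40.99 and 42.8 with the BRD mixes. In DMSO it stood at 26.6 and 23.6, and in both JQ1 libraries at 73.5 and 73.6. No group overlapped its controls. The log2 fold changes were -0.66 ± 0.0732 (SE), 1.21 ± 0.0732 (SE) and 1.52 ± 0.0846 (SE) (limma adjusted p 4.76e-08, 3.9e-12 and 1.08e-12), and YAP/TAZ siRNA lay below BRD siRNA by -1.88 (adjusted p 5.59e-17). KDM1A, the LSD1 subunit of CoREST, fell with YAP/TAZ siRNA (-0.23) and had 0.03 with BRD siRNA (adjusted p 0.563). Its JQ1 call (-0.13) was lost without any 1 of the 4 libraries (adjusted p 0.0724 to 0.106).

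**Figure D2:**
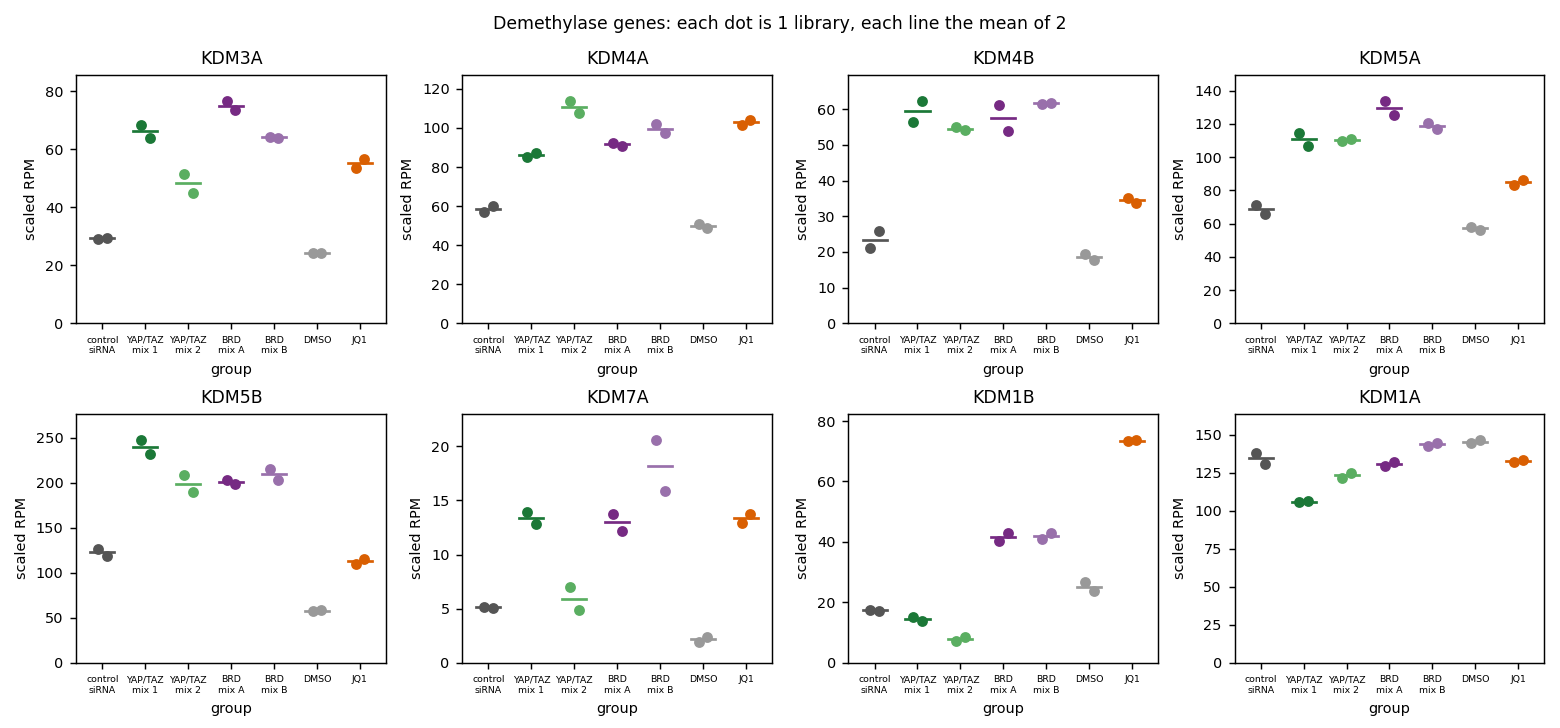
Level of 8 KDM genes in each of the 14 libraries, in scaled RPM on the vertical axis, by group on the horizontal axis, with 1 point per library and a line at the mean of 2. KDM5B in DMSO (57.0 and 58.3) lies under every other library, and KDM1B is lower with YAP/TAZ siRNA and higher with BRD siRNA and JQ1 than in the matching controls.

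Most deacetylase genes were higher with YAP/TAZ siRNA, more were lower than higher with BRD siRNA, and the split with JQ1 was nearly even. Of 11 HDAC genes, 8 were higher and 3 lower with YAP/TAZ siRNA (median 0.37, background 43.1% and 35.9%). With BRD siRNA 3 were higher and 6 lower (-0.21, background 37.6% and 37.6%). With JQ1 5 were higher and 6 lower (-0.27, background 37.6% and 36.3%). Leaving out any 1 library gave 2 to 3 higher and 4 to 7 lower with BRD siRNA. In the direct comparison of the knockdowns, which share no library, 9 HDAC genes were higher and 2 lower with YAP/TAZ siRNA than with BRD siRNA, where 41.1% of all genes were higher and 40.3% lower. HDAC5, a class IIa enzyme that shuttles between nucleus and cytoplasm, rose in every perturbed group. It stood at 18.2 and 19.8 with control siRNA, 49.8 and 52.9 and 71.3 and 69.7 with the YAP/TAZ mixes, 44.7 and 40.9 and 47.6 and 46.8 with the BRD mixes, 15.4 and 16.6 in DMSO and 58.7 and 51.8 in JQ1. Its log2 fold changes were 1.61 ± 0.0651 (SE), 1.20 ± 0.0651 (SE) and 1.73 ± 0.0752 (SE) (limma adjusted p 3.87e-15, 7.13e-13 and 2.05e-14).

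HDAC9, another class IIa gene, fell instead. Its levels were 41.3 and 42.02 with control siRNA, 15.9 in both libraries of YAP/TAZ mix 1, 10.6 and 11.7 with mix 2, 26.8 and 29.5 with BRD mix A and 38.8 and 41 with mix B. It went from 48.5 and 43.9 in DMSO to 14.9 and 18.1 in JQ1. The YAP/TAZ and JQ1 libraries lay well under their controls, whereas those of BRD mix B lay just under them. The log2 fold changes were -1.57 ± 0.0774 (SE), -0.31 ± 0.0774 (SE) and -1.44 ± 0.0894 (SE) (limma adjusted p 9.79e-14, 0.00128 and 6.71e-12), and with BRD mix B alone the call was lost (-0.06, adjusted p 0.548). The other class IIa genes, HDAC4 and HDAC7, were higher with YAP/TAZ siRNA (0.25 and 0.36) and lower with JQ1 (-0.86 and -0.77). With YAP/TAZ siRNA, HDAC4 was lost without control replicate 1 (0.20, adjusted p 0.0553) and with mix 2 alone had the other sign (-0.17). HDAC7 was called lower with BRD siRNA (-0.21), which was lost without control replicate 2 (-0.15, adjusted p 0.114).

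HDAC11, the single class IV enzyme, stood at 6.71 and 9.75 with control siRNA, 10.9 and 10.2 and 19.7 and 18.5 with the YAP/TAZ mixes, 6.97 and 7.85 and 5.34 and 5.24 with the BRD mixes, 6.65 and 6.93 in DMSO and 21.7 and 19.8 in JQ1. It rose with YAP/TAZ siRNA (0.74 ± 0.106 (SE)) and JQ1 (1.48 ± 0.122 (SE)). With BRD siRNA the change was -0.33 ± 0.106 (SE) (limma adjusted p 0.00897), and mix A overlapped the controls. Without control replicate 2 that call was lost (-0.09, adjusted p 0.489). The class IIb gene HDAC6, which deacetylates tubulin, had the same 3 directions: 61.5 and 63.3 with control siRNA, 67.97 and 71.8 and 99.1 and 96.3 with the YAP/TAZ mixes, 47.03 and 39.7 and 58.1 and 56.3 with the BRD mixes, 41.98 and 44.4 in DMSO and 72.6 and 74.05 in JQ1. Its log2 fold changes were 0.40 ± 0.0601 (SE), -0.32 ± 0.0601 (SE) and 0.75 ± 0.0694 (SE). The BRD change came from mix A (-0.52), and with mix B alone it did not pass (-0.12, limma adjusted p 0.121). HDAC10, also class IIb, was called higher in each comparison (0.57, 0.32 and 0.77), but with BRD siRNA the call was lost without control replicate 1, mix A replicate 1 or mix B replicate 1 (0.22, 0.16 and 0.28; limma adjusted p 0.23, 0.128 and 0.0721).

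Class I enzymes, which include the catalytic cores of the NuRD, Sin3, CoREST and NCoR corepressors, moved apart. HDAC3, the NCoR enzyme, stood at 106 and 105 with control siRNA, 80.7 and 78.4 and 68.1 and 69.1 with the YAP/TAZ mixes, 149 and 155 and 129.9 and 139 with the BRD mixes, 128 and 126 in DMSO and 197 and 200.3 in JQ1. It was lower with YAP/TAZ siRNA (-0.51 ± 0.0463 (SE)) and higher with BRD siRNA (0.43 ± 0.0463 (SE)) and JQ1 (0.65 ± 0.0534 (SE)), with no overlap between any of these groups and its control. HDAC1 rose with YAP/TAZ siRNA from 228 to between 357 and 365 (0.66 ± 0.0456 (SE)), had 0.08 with BRD siRNA (limma adjusted p 0.131) and fell with JQ1 (-0.27). HDAC2, its close relative, fell in each comparison (-0.33, -0.49 and -0.52). HDAC8 was higher with YAP/TAZ siRNA (0.37) and lower with BRD siRNA (-0.34) and JQ1 (-0.28).

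EZH2 and EZH1, alternative catalytic subunits of Polycomb repressive complex PRC2, moved in opposite directions. EZH2, which is known to be transcribed in dividing cells, stood at 91.3 and 86.5 with control siRNA, 43.1 and 40.2 and 33.9 and 35.5 with the YAP/TAZ mixes, and 32.05 and 34.2 and 28.7 and 29.2 with the BRD mixes. It went from 114 and 109 in DMSO to 32.97 and 32.8 in JQ1. Every perturbed library lay far under both of its control libraries. The log2 fold changes were -1.21 ± 0.056 (SE), -1.49 ± 0.056 (SE) and -1.73 ± 0.0647 (SE) (limma adjusted p 3.76e-14, 1.94e-15 and 1.81e-15). EZH1 stood at 34.05 and 36.1 with control siRNA, 45.8 and 44.6 and 39.7 and 39.4 with the YAP/TAZ mixes, 51.8 and 43.1 and 55.4 and 55.6 with the BRD mixes, 27.4 and 27.8 in DMSO and 65.6 and 69.3 in JQ1. All its perturbed libraries lay above their controls, with log2 fold changes of 0.26 ± 0.0641 (SE), 0.53 ± 0.0641 (SE) and 1.26 ± 0.074 (SE). EZH2 fell beside the 20 proliferation markers described above. Other Polycomb genes, 22 in the table, had 7 higher and 10 lower with YAP/TAZ siRNA, 5 and 12 with BRD siRNA, and 4 and 14 with JQ1. The PRC2 core subunits EED (-0.76, -1.04 and -1.06) and SUZ12 (-0.91, -0.39 and -0.68) passed downwards in each, as did the accessory subunit PHF19 (-1.21, -2.18 and -2.85).

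The CBX family splits into Polycomb subunits and heterochromatin proteins. Among the Polycomb subunits, CBX7 (0.39, 0.76 and 0.36) and CBX8 (0.49, 0.47 and 0.35) were called higher in each comparison, CBX7 with JQ1 not without DMSO replicate 1 (0.26, adjusted p 0.066). For CBX7, DMSO was lower than control siRNA by more than the JQ1 rise (-0.67, limma adjusted p 1.11e-05). Its JQ1 libraries, at 5.94 and 6.5, lay under those of control siRNA, at 7.67 and 8.19. CBX2 fell with BRD siRNA and JQ1: 26.6 and 27.5 with control siRNA against 9.29 and 7.74 and 6.36 and 5.37 with the BRD mixes, and 28.3 and 28.1 in DMSO against 13.3 and 13.5 in JQ1. Its log2 fold changes there were -1.80 ± 0.0872 (SE) and -1.02 ± 0.101 (SE) (limma adjusted p 1.12e-13 and 1.08e-08). With YAP/TAZ siRNA it was 17.1 and 18.1 in mix 1 and 35.9 and 30.3 in mix 2, on opposite sides of the controls, and the mean of both did not pass (-0.16, adjusted p 0.0993). CBX6 fell with BRD siRNA (-0.43) and had -0.14 and -0.18 in the other comparisons (limma adjusted p 0.0705 and 0.0536).

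The heterochromatin proteins HP1 bind methylated H3K9. CBX1 and CBX3 were lower in each comparison (CBX1 -0.16, -0.61 and -0.82; CBX3 -0.27, -0.19 and -0.69). With YAP/TAZ siRNA the CBX1 call was lost under quantile normalization (-0.04, adjusted p 0.346), and with BRD siRNA the CBX3 call was lost without control replicate 1 (-0.12, adjusted p 0.12). CBX5 depended on the mix: 121 and 119.9 with control siRNA, 119 and 117 with YAP/TAZ mix 1, 61.6 and 62.4 with mix 2, 70.3 and 73.8 with BRD mix A and 111 and 120 with mix B. Mix 1 and mix B stayed near the controls, while mix 2 and mix A lay far under them. With JQ1 CBX5 rose from 93.5 and 93.2 to 123 and 128, and the log2 fold changes were -0.49 ± 0.048 (SE), -0.40 ± 0.048 (SE) and 0.42 ± 0.0555 (SE). DMSO was itself lower than control siRNA (-0.36, limma adjusted p 1.37e-05), so the JQ1 libraries lay just above control siRNA. Against the DMSO libraries BRD mix A lay lower and mix B higher.

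**Figure D3:**
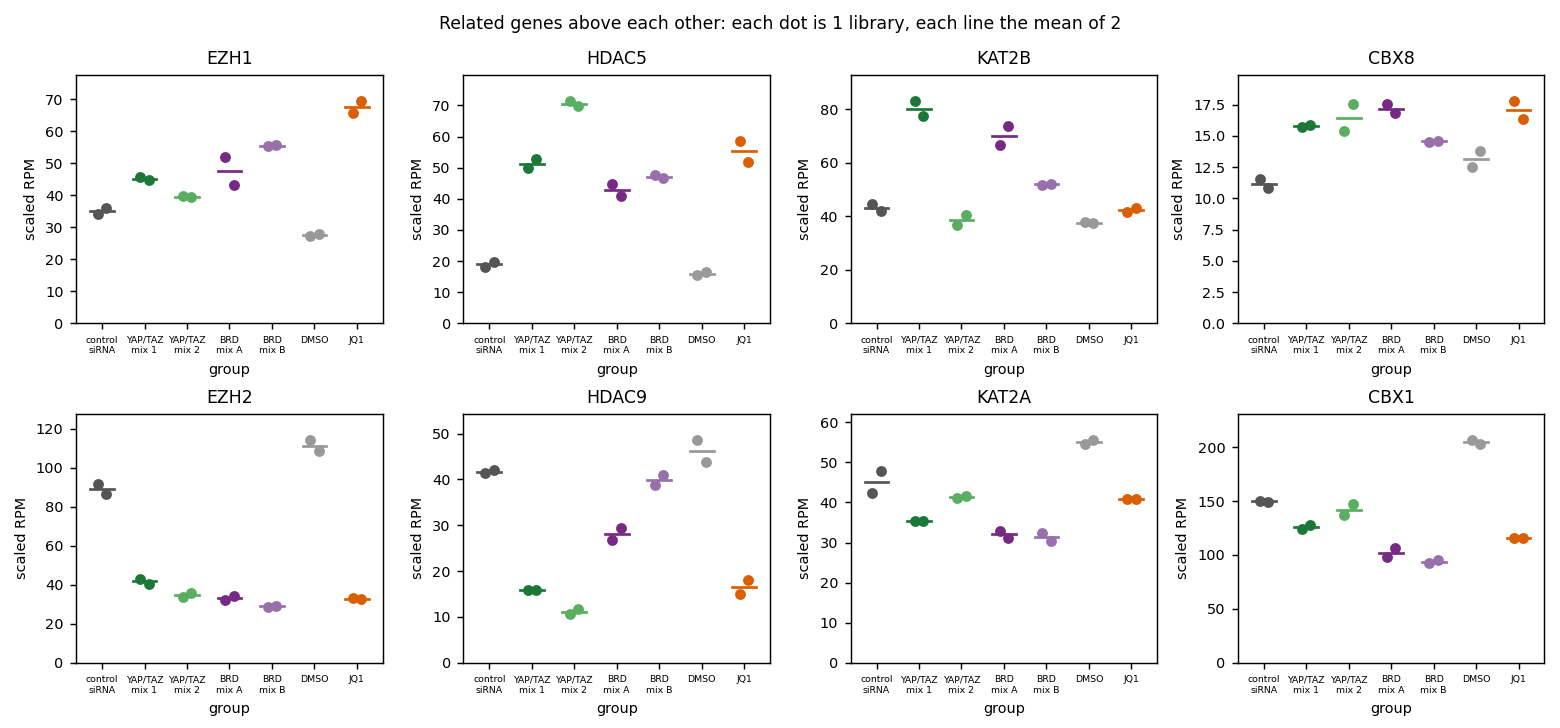
Level of 4 pairs of related genes that moved apart, in each of the 14 libraries, in scaled RPM on the vertical axis, by group on the horizontal axis, with 1 point per library and a line at the mean of 2. EZH2 drops from 86.5 or more to 43.1 or less with either knockdown while EZH1 is higher than its controls, and HDAC5 and HDAC9 move in opposite directions with YAP/TAZ siRNA and JQ1.

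Among the acetyltransferases KAT5 (TIP60, the enzyme of the NuA4 complex) fell with BRD siRNA. It stood at 58.5 and 61.8 with control siRNA, 23.4 and 21.6 with BRD mix A and 30.1 and 29.2 with mix B, against 60.9 and 61.1 and 65.9 and 70.1 with the YAP/TAZ mixes, 65.7 and 64.1 in DMSO and 56.6 and 54.9 in JQ1. The log2 fold change was -1.19 ± 0.0549 (SE) with BRD siRNA, 0.10 ± 0.0549 (SE) with YAP/TAZ siRNA and -0.22 ± 0.0634 (SE) with JQ1 (limma adjusted p 5.33e-14, 0.105 and 0.00428), and the JQ1 effect differed from the BRD effect by 0.97 (adjusted p 4.58e-09). KAT6B stood at 26 and 25.7 with control siRNA, 43.5 and 41.6 and 59.2 and 53.97 with the YAP/TAZ mixes, 24.6 and 21.9 with BRD mix A and 14.9 and 14.4 with mix B. It rose with YAP/TAZ siRNA (0.90 ± 0.0664 (SE)) and fell with BRD siRNA (-0.47 ± 0.0664 (SE)), the latter carried by mix B, since mix A alone gave -0.15 (limma adjusted p 0.0888). Of all 7 KAT genes, 2 were higher and 2 lower with YAP/TAZ siRNA, 1 and 4 with BRD siRNA, and 3 and 4 with JQ1. KAT2A and KAT2B, the GCN5 and PCAF enzymes, moved apart. KAT2A was lower in each comparison (-0.23, -0.49 and -0.42), though with YAP/TAZ siRNA not without control replicate 2 (-0.14, adjusted p 0.0724). KAT2B was higher with YAP/TAZ siRNA (0.36) and BRD siRNA (0.47), but with YAP/TAZ mix 2 alone it was lower (-0.16). JQ1 calls of small size, KAT2B (0.17), KAT6A (-0.18), KAT6B (0.22) and KAT7 (-0.15), were each lost when 1 of the DMSO or JQ1 libraries was left out, among them JQ1 replicate 1 for KAT6A and JQ1 replicate 2 for the others (0.15, -0.13, 0.17 and -0.13 in the order of the genes; limma adjusted p 0.145, 0.121, 0.124 and 0.137). KAT7 was lower with YAP/TAZ siRNA (-0.24), but with mix 1 alone it did not pass (-0.11, limma adjusted p 0.0923). KAT8 was called lower with BRD siRNA (-0.20, not without control replicate 2, -0.14, adjusted p 0.246) and higher with JQ1 (0.39).

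SETD8, the methyltransferase of H4K20 that acts in the cell cycle, fell most among the SETD genes. It stood at 131 and 125 with control siRNA, 91.3 and 95.7 with YAP/TAZ mix 1, 44.4 and 43.05 with mix 2, 58.6 with BRD mix A and 20.7 and 20.4 with mix B. It went from 121 and 119 in DMSO to 50.4 and 48.9 in JQ1, and no perturbed library overlapped its controls. The log2 fold changes were -0.99 ± 0.0495 (SE), -1.84 ± 0.0495 (SE) and -1.25 ± 0.0571 (SE) (limma adjusted p 1.35e-13, 1.75e-17 and 4.4e-14). The mixes disagreed on size: mix 1 lay above mix 2 by 1.08 (adjusted p 8.51e-13) and mix A above mix B by 1.47 (adjusted p 2.2e-14). SETD7, an H3K4 and protein methyltransferase, stood at 82.5 and 70.1 with control siRNA, 97.99 and 92.8 and 99.04 and 96.05 with the YAP/TAZ mixes and 135 and 136 and 132 and 131 with the BRD mixes, but at 150.2 and 142 in DMSO and 122 and 121 in JQ1. It was higher with both knockdowns (0.34 ± 0.056 (SE) and 0.80 ± 0.056 (SE)) and lower with JQ1 (-0.26 ± 0.0646 (SE)). With DMSO as the reference the knockdowns gave -0.59 and -0.13, so the direction of SETD7 rested on the choice of control.

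The 12 SETD genes had 3 higher and 5 lower with YAP/TAZ siRNA, 3 and 7 with BRD siRNA, and 1 and 5 with JQ1. SETD2, which trimethylates H3K36, rose with BRD siRNA (0.40), and had -0.02 and 0.03 in the other comparisons (limma adjusted p 0.781 and 0.713). SETD3, an actin histidine methyltransferase, fell in each (-0.61, -0.21 and -0.32), although BRD mix A alone gave 0.02. SETD9 fell as well (-0.60, -0.56 and -0.40), with the JQ1 call lost without DMSO replicate 1 or JQ1 replicate 2 (-0.31 and -0.29; limma adjusted p 0.0722 and 0.0875). SETD6 fell with YAP/TAZ siRNA (-0.64) and with BRD siRNA (-0.27), the latter lost without control replicate 2, mix A replicate 2 or mix B replicate 2 (-0.10, -0.20 and -0.19; limma adjusted p 0.485, 0.0775 and 0.114). SETDB2 fell with both knockdowns (-0.40 and -0.54). SETDB1, which trimethylates H3K9, was called lower with BRD siRNA (-0.15), a call lost without control replicate 2 (-0.10, adjusted p 0.274), mix A replicate 2 (-0.09, adjusted p 0.177) or mix B replicate 2 (-0.12, adjusted p 0.147). The COMPASS enzymes SETD1A and SETD1B, which methylate H3K4, each moved in part: SETD1A fell with BRD siRNA (-0.43), and SETD1B rose with YAP/TAZ siRNA (0.42) and fell with JQ1 (-0.43). SETD4 rose with JQ1 (0.63), and SETD5 with YAP/TAZ siRNA (0.33) and BRD siRNA (0.20).

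The SWI/SNF (BAF) complexes slide and evict nucleosomes and are built from SMARC and ARID subunits. Of 12 such subunits, 2 were higher and 3 lower with YAP/TAZ siRNA, 2 and 7 with BRD siRNA, and 2 and 6 with JQ1. The YAP/TAZ split depended on scaling, since quantile normalization gave 5 higher and 1 lower. By mix, 4 of these subunits were higher and 4 lower with mix 1 alone, and 5 and 2 with mix 2 alone. The 13 SMARC genes, some of them outside SWI/SNF, had 3 higher and 4 lower over both mixes. Their split depended on the mix, with 2 higher and 7 lower with mix 1 alone, and 7 and 2 with mix 2 alone. The ATPases differed: SMARCA2 (BRM) rose with BRD siRNA (0.28) and JQ1 (0.61), whereas SMARCA4 (BRG1) had -0.07 and -0.08 there (limma adjusted p 0.272 and 0.283). SMARCA4 was called lower with YAP/TAZ siRNA (-0.13), but not without control replicate 2, mix 1 replicate 1 or mix 2 replicate 2 (-0.06, -0.11 and -0.11; limma adjusted p 0.442, 0.107 and 0.101), and mix 2 alone gave 0.10.

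ARID2, the subunit that defines the PBAF form, stood at 37.99 and 37.3 with control siRNA, 44.3 and 41.95 and 31.9 and 35.5 with the YAP/TAZ mixes, 20.8 and 19.8 and 17.8 and 19.99 with the BRD mixes, 28.9 and 30.9 in DMSO and 13.9 and 12.4 in JQ1. The BRD and JQ1 libraries lay under their controls, while the YAP/TAZ mixes lay on either side of them. Its log2 fold changes were -0.91 ± 0.0715 (SE) with BRD siRNA, -1.13 ± 0.0825 (SE) with JQ1 and 0.02 ± 0.0715 (SE) with YAP/TAZ siRNA (limma adjusted p 2.8e-10, 8.9e-11 and 0.826). ARID1B, a subunit of the canonical BAF form, went from 14.8 and 15.9 in DMSO to 7.26 and 8.01 in JQ1 (-0.92 ± 0.0861 (SE)) and from 18.01 and 16.1 with control siRNA to 27.5 and 27.1 and 25.01 and 24 with the YAP/TAZ mixes (0.58 ± 0.0746 (SE)). With BRD siRNA it was 21.3 and 20.7 in mix A and 13.98 and 13.4 in mix B, on opposite sides of the controls. ARID1A, its paralog, fell with BRD siRNA (-0.35) and had -0.02 and 0.01 in the other comparisons (limma adjusted p 0.787 and 0.919).

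SMARCC2, a core scaffold, changed with JQ1: 44.6 and 48.2 in DMSO against 26.3 and 23.7 in JQ1, a log2 fold change of -0.87 ± 0.0805 (SE) (limma adjusted p 4.08e-09). In the knockdown libraries it lay between 49.6 and 59.5 around controls of 52.8 and 48.5, with changes of 0.04 and 0.06 that did not pass (adjusted p 0.577 and 0.439). Its paralog SMARCC1 fell in each comparison (-0.34, -0.16 and -0.54), with BRD siRNA not without control replicate 1 (-0.12, adjusted p 0.069). The SMARCD accessory subunits differed. SMARCD2 went from 77.5 and 77.3 in DMSO to 139.7 and 145 in JQ1 (0.87 ± 0.0559 (SE)) and from 79.6 with control siRNA to 109 and 118 and 104 and 110.5 with the BRD mixes (0.46 ± 0.0484 (SE)), while the YAP/TAZ mixes, at 60.9 and 60.99 and 103 and 102, lay on either side of the controls. SMARCD3, a subunit at low level here, stood at 1.71 and 2.47 with control siRNA, 3.36 and 4.47 and 3.69 and 3.17 with the YAP/TAZ mixes, 0.758 and 0.710 and 0.714 and 0.767 with the BRD mixes, 5.48 and 4.45 in DMSO and 1.65 and 1.54 in JQ1. It rose with YAP/TAZ siRNA (0.60) and fell with BRD siRNA (-0.82) and JQ1 (-1.20), but with DMSO as the reference YAP/TAZ siRNA gave -0.35. SMARCD1 was lower with BRD siRNA (-0.19), a call lost without control replicate 1 (-0.14, adjusted p 0.0821). SMARCB1, the SNF5 core subunit, fell with BRD siRNA (-0.54) and had 0.14 and 0.02 in the other comparisons (limma adjusted p 0.0586 and 0.838). SMARCE1 (BAF57) fell with BRD siRNA (-0.54) and JQ1 (-0.70), and its YAP/TAZ call (-0.13) was lost without control replicate 1 (-0.11, adjusted p 0.129) or mix 2 replicate 1 (-0.11, adjusted p 0.0668). Partner subunits of the complex, 15 in the table, had 4 higher and 7 lower with YAP/TAZ siRNA, 5 and 6 with BRD siRNA, and 0 and 9 with JQ1. BCL7A (-0.88, -0.19 with adjusted p 0.117, and -1.26) and PHF10 (-0.53, -0.22 and -0.75) were among those lower with JQ1.

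SMARC genes outside SWI/SNF encode other ATPases. SMARCA1, an ISWI motor, stood at 138 and 123 with control siRNA, 108 with YAP/TAZ mix 1, 218 and 226 with mix 2, 77.1 and 80.2 and 103 and 100.3 with the BRD mixes, 125 and 127 in DMSO and 138 and 139 in JQ1. The YAP/TAZ mixes lay on opposite sides of the controls, so the mean change (0.25) describes neither, and BRD siRNA gave -0.54 ± 0.0499 (SE). Its small JQ1 call (0.13) was lost without any 1 of the 4 libraries (limma adjusted p 0.0898 to 0.163). SMARCA5, the other ISWI motor, was lower with YAP/TAZ siRNA (-0.25), although mix 2 alone gave 0.0048. It was higher with BRD siRNA (0.29) and lower with JQ1 (-0.22, not without JQ1 replicate 1, -0.17, adjusted p 0.0547). SMARCAD1 fell with BRD siRNA (-0.27) and was called higher with YAP/TAZ siRNA (0.23), which was lost without control replicate 2 (0.13, adjusted p 0.0566). SMARCAL1, an annealing helicase at stalled replication forks, fell with BRD siRNA (-0.36) and with JQ1 (-0.28), the latter lost without DMSO replicate 2 (-0.25, adjusted p 0.0696) or JQ1 replicate 1 (-0.25, adjusted p 0.065).

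The ARID genes outside SWI/SNF bind DNA in other settings. ARID5B, a partner of the demethylase PHF2, rose with YAP/TAZ siRNA from 19.5 and 18.6 to 41.1 and 39.3 (mix 1) and 38.1 and 36.6 (mix 2), a log2 fold change of 0.99 ± 0.0762 (SE). With BRD siRNA it stayed within its control range or near it (18.9 and 18.3 and 21.5 and 20.3, change 0.05, limma adjusted p 0.585), and with JQ1 it rose from 11.1 and 10.6 to 16.6 and 13.6 (0.44). ARID3B fell with YAP/TAZ siRNA (-0.76), but through mix 2: controls 9.64 and 11.7, mix 1 9.39 and 9.54 and mix 2 3.35 and 3.67. With mix 1 alone the change was -0.15 (adjusted p 0.203). ARID3B and ARID3A also fell with BRD siRNA (-0.66 and -0.81). The YAP/TAZ call of ARID3A (-0.25, limma adjusted p 0.05) lay at the threshold and was lost without control replicate 1 or 2, mix 1 replicate 1 or mix 2 replicate 2 (-0.18, -0.31, -0.20 and -0.22; adjusted p 0.258, 0.0581, 0.134 and 0.104). ARID4A and ARID4B, Sin3-associated proteins, rose with both knockdowns (ARID4A 0.56 and 0.72, ARID4B 0.63 and 0.68). With JQ1 ARID4A had 0.00 (adjusted p 0.98), and the ARID4B call (0.22) was lost without JQ1 replicate 2 (0.13, adjusted p 0.136). ARID5A was lower with YAP/TAZ siRNA (-0.41), through mix 2 (-0.71) and not with mix 1 alone (-0.11, limma adjusted p 0.389), and higher with JQ1 (0.46).

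Most CHD remodellers carry chromodomains, which can read methylated histones. CHD2 went from 109.7 and 106 with control siRNA to 213 and 192 and 199.5 and 182 with the YAP/TAZ mixes and 236 and 199 and 179 and 165 with the BRD mixes, and from 72.5 and 82.1 in DMSO to 149 and 159 in JQ1. It did not overlap its controls in any perturbed group, and rose by 0.86 ± 0.0682 (SE), 0.83 ± 0.0682 (SE) and 0.99 ± 0.0787 (SE) on the log2 scale (limma adjusted p 2.75e-10, 5.45e-10 and 3.57e-10). CHD7, the CHARGE syndrome gene, stood at 40.7 and 41.5 with control siRNA, 23.1 and 23.2 and 28.1 and 24.6 with the YAP/TAZ mixes, 34.5 and 31.8 and 33.6 and 30.8 with the BRD mixes, 20.8 and 21.7 in DMSO and 14.8 and 14.6 in JQ1. It was lower in each comparison (-0.71, -0.32 and -0.50), but DMSO was also lower than control siRNA (-0.92), and with DMSO as the reference the knockdowns gave 0.21 and 0.60. Of all 9 CHD genes 6 were higher and 2 lower with YAP/TAZ siRNA, 2 and 5 with BRD siRNA, and 2 and 5 with JQ1. The NuRD motors CHD3 and CHD4 were higher with YAP/TAZ siRNA (0.49 and 0.24). CHD3 was lower with BRD siRNA (-0.35) and JQ1 (-0.64), where CHD4 had -0.08 and -0.08 (limma adjusted p 0.137 and 0.215). With BRD mix A alone CHD3 did not pass (-0.14, limma adjusted p 0.0719), against -0.56 with mix B. CHD8 and CHD9 were higher with YAP/TAZ siRNA (0.30 and 0.40). CHD8 was lower with BRD siRNA (-0.17), and CHD9 with JQ1 (-0.32). CHD6 rose with both knockdowns (0.43 and 0.38), and its JQ1 call (0.17) was lost without DMSO replicate 1 or JQ1 replicate 2 (0.11 and 0.14; limma adjusted p 0.197 and 0.123). CHD1 fell with JQ1 (-0.27) and, not without control replicate 1 (-0.07, adjusted p 0.311), with BRD siRNA (-0.18). CHD1L, a remodeller drawn to DNA damage by poly(ADP-ribose), fell with both knockdowns (-0.26 and -0.43), and its JQ1 call (-0.17) was lost without DMSO replicate 2 (-0.14, adjusted p 0.141) or JQ1 replicate 1 (-0.13, adjusted p 0.177).

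JQ1 and BRD siRNA both act on BET proteins but differ in time, 24 h against 72 h, and in control. No library is shared between them, so their calls can be set side by side. Of the 29 genes higher with BRD siRNA, 23 were higher with JQ1, which is 79.3% of the BRD list and 69.7% of the 33 on the JQ1 list. Over all genes the shares were 64.3% and 64.4%. Of the 43 genes lower with BRD siRNA, 23 were lower with JQ1, 53.5% of the first list and 65.7% of the second, against 64.1% and 66.3% over all genes. The difference of the effects themselves, JQ1 against DMSO minus BRD siRNA against control siRNA, passed the test for 63 of 88 genes (background 60.1%). It was most positive for HDAC11 (1.81 ± 0.162 (SE)), KDM8 (1.28 ± 0.172 (SE)), HDAC6 (1.07 ± 0.0918 (SE)), KAT5, ARID3A (0.94 ± 0.172 (SE)) and CBX5 (0.82 ± 0.0734 (SE)). It was most negative for HDAC9 (-1.13 ± 0.118 (SE)), SETD7 (-1.06 ± 0.0855 (SE)), SMARCC2 (-0.93 ± 0.106 (SE)), ARID1B (-0.92 ± 0.114 (SE)), ARID4A (-0.71 ± 0.115 (SE)) and HDAC4 (-0.71 ± 0.11 (SE)). JQ1 also shares no library with YAP/TAZ siRNA. Of the 41 genes higher with YAP/TAZ siRNA 24 were higher with JQ1 (58.5% and 72.7% of the lists, against 55.9% and 64.1% over all genes) and 10 were lower (24.4%, against 17.3%). Of the 25 lower genes, 16 were lower with JQ1 (64% and 45.7% of the lists, against 64.3% and 63.4% over all genes).

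**Figure D4:**
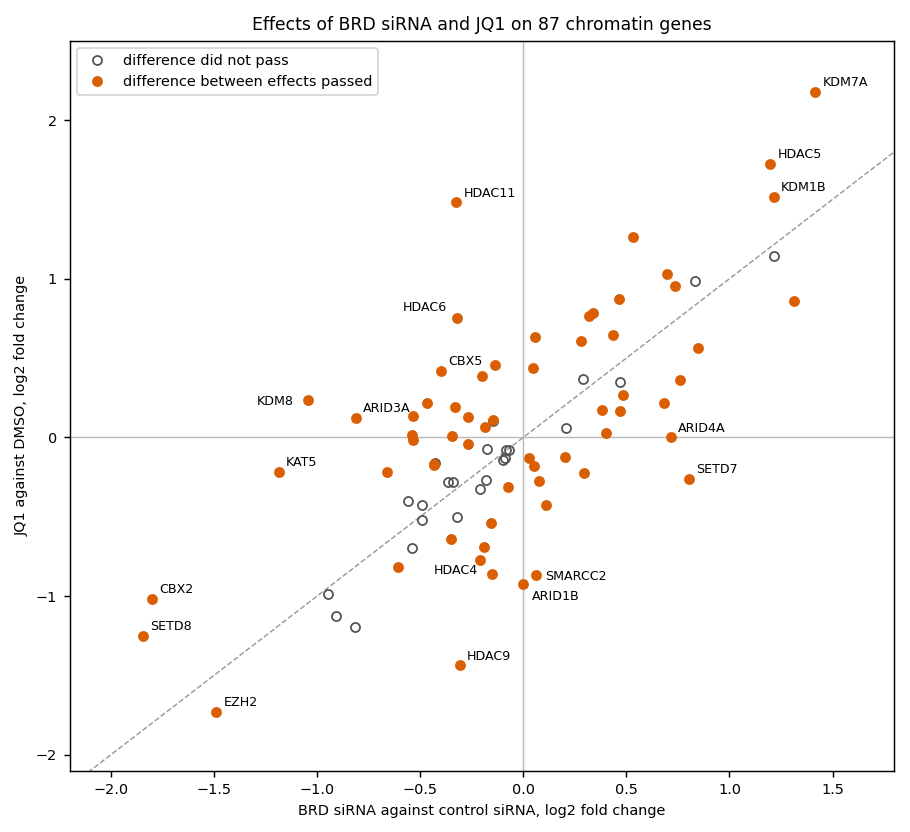
Each point is 1 gene, for 87 of the 88, with the log2 fold change of BRD siRNA against control siRNA on the horizontal axis and of JQ1 against DMSO on the vertical axis, on the log2(value + 1) scale, filled where the difference between the effects passed the test, with a dashed line where both are equal. KDM7A, HDAC5 and KDM1B are in the upper right, EZH2 and SETD8 in the lower left, and HDAC11 (-0.33 and 1.48) and HDAC9 (-0.31 and -1.44) lie at similar horizontal positions far apart.

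Set directly against BRD siRNA, YAP/TAZ siRNA gave different levels for 69 of 88 genes (background 81.3%). The knockdowns also differ in time, 48 h against 72 h. KAT6B (1.36 ± 0.0542 (SE)), SMARCD3 (1.42 ± 0.102 (SE)), CBX2 (1.64 ± 0.0712 (SE)) and KAT5 (1.28 ± 0.0448 (SE)) were among the genes higher with YAP/TAZ siRNA. KDM1B (-1.88 ± 0.0598 (SE)), HDAC9 (-1.26 ± 0.0632 (SE)) and HDAC3 (-0.94 ± 0.0378 (SE)) were among those lower. Of the 15 JmjC genes, 5 were higher and 3 lower with YAP/TAZ siRNA, where 41.1% of all genes were higher and 40.3% lower. KDM6B (1.00), KDM8 (0.90) and KDM4D (0.76) were among the higher ones, and KDM7A (-0.72) and KDM3A (-0.29) among the lower. The other JmjC genes, KDM3B, KDM4A, KDM4B, KDM4C, KDM5B, KDM5C and KDM6A, did not differ past the threshold (differences of -0.09 to 0.13).

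The pair of siRNA mixes for 1 target often gave different levels. Mix 1 differed from mix 2 for 65 of the 88 genes, 33 higher and 32 lower (background 65.7% in either direction). The largest differences upwards were those of ARID3B (1.21 ± 0.108 (SE)), SETD8 (1.08 ± 0.0571 (SE)), KDM7A (1.07 ± 0.136 (SE)), KAT2B (1.04 ± 0.0685 (SE)), CBX5 (0.91 ± 0.0555 (SE)) and HDAC4 (0.84 ± 0.0829 (SE)), and downwards those of SMARCAL1 (-1.10 ± 0.0937 (SE)), KDM4D (-1.08 ± 0.143 (SE)), SMARCA1 (-1.04 ± 0.0577 (SE)), CBX2 (-0.87 ± 0.101 (SE)), HDAC11 (-0.80 ± 0.122 (SE)) and SMARCD2 (-0.74 ± 0.0559 (SE)). SMARCAL1 shows what such a split does to a mean: at 17.4 and 19.02 with control siRNA, it was 12.4 and 13.2 with mix 1 and 30.7 and 26.5 with mix 2, and the mean change of 0.07 did not pass (limma adjusted p 0.425). Mix A differed from mix B for 48 genes, 28 higher and 20 lower (background 50.0%). Upwards these were led by SETD8 (1.47 ± 0.0571 (SE)), KAT6B (0.63 ± 0.0767 (SE)), ARID1B (0.58 ± 0.0861 (SE)), HDAC2 (0.58 ± 0.0553 (SE)), ARID4B (0.50 ± 0.0657 (SE)) and HDAC10 (0.50 ± 0.143 (SE)), and downwards by CBX5 (-0.67 ± 0.0555 (SE)), KAT8 (-0.58 ± 0.0976 (SE)), KAT7 (-0.50 ± 0.0587 (SE)), HDAC9 (-0.49 ± 0.0894 (SE)), SETDB1 (-0.48 ± 0.0757 (SE)) and SMARCE1 (-0.48 ± 0.0585 (SE)). The HDAC10 difference was lost without mix A replicate 1 (0.18, limma adjusted p 0.242) or mix B replicate 2 (0.41, adjusted p 0.0687). Several smaller calls made over both mixes were also not passed by 1 mix alone. With YAP/TAZ mix 1 these were CBX5 (-0.03, adjusted p 0.604), HDAC7 (0.16, adjusted p 0.0647), KDM3B (0.09, adjusted p 0.157) and SMARCAD1 (0.03, adjusted p 0.728) by limma. With YAP/TAZ mix 2 they were CBX1 (-0.08, adjusted p 0.206), HDAC4 (-0.17, adjusted p 0.0742), KAT2A (-0.12, adjusted p 0.119), KDM6A (0.05, adjusted p 0.567), SETD1B (0.24, adjusted p 0.0702), SMARCA4 (0.10, adjusted p 0.145), SMARCA5 (0.0048, adjusted p 0.946) and SMARCE1 (-0.06, adjusted p 0.382). With BRD mix A they were CBX3 (-0.08, adjusted p 0.265), CHD8 (-0.06, adjusted p 0.322), HDAC7 (0.01, adjusted p 0.92), HDAC11 (-0.12, adjusted p 0.396), KDM6A (0.16, adjusted p 0.0838), SETD3 (0.02, adjusted p 0.738), SMARCC1 (-0.10, adjusted p 0.103) and SMARCD1 (-0.12, adjusted p 0.109). With BRD mix B they were CBX5 (-0.06, adjusted p 0.33), CHD1 (-0.02, adjusted p 0.841), HDAC10 (0.07, adjusted p 0.674), KAT8 (0.09, adjusted p 0.429), KDM4C (0.20, adjusted p 0.118), SETD6 (-0.22, adjusted p 0.109) and SETDB1 (0.09, adjusted p 0.282). EZH2, HDAC5, KDM4B and CHD2 lay on the same side of the controls in every library of all 4 mixes.

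Between the controls, 16 of the 88 genes were higher in DMSO than with control siRNA and 31 lower, 18.2% and 35.2% against 28.7% and 25.4% of all genes. In either direction the share was 53.4%, close to the 54.2% of all genes. The KDM family had a median difference of -0.255 against 0.0108 over all genes. The largest differences among the 88 were those of KDM5B (-1.08 ± 0.0596 (SE)), SMARCD3 (0.96 ± 0.144 (SE)), KDM7A (-0.95 ± 0.136 (SE)), SETD7 (0.93 ± 0.0646 (SE)), CHD7 (-0.92 ± 0.079 (SE)) and KDM6B (-0.83 ± 0.139 (SE)). Of the 20 proliferation markers, 19 were higher in DMSO and 0 lower (median 0.38). With DMSO as the reference, the BRD siRNA changes of HDAC6, CHD8 and SETDB1 (0.20, 0.09 and 0.38) and the YAP/TAZ siRNA change of ARID3A (0.38) took the other sign. Transfection and time of harvest cannot be told apart here.

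Other chromatin genes, in lists chosen for function, gave a setting for these families. Over all genes 43.1% were higher and 35.9% lower with YAP/TAZ siRNA, 37.6% and 37.6% with BRD siRNA, and 37.6% and 36.3% with JQ1. Sirtuins, the NAD-dependent deacetylases, were mostly higher: 6 of 7 were higher and 1 lower with YAP/TAZ siRNA, 6 and 1 with BRD siRNA, and 6 and 0 with JQ1 (medians 0.37, 0.93 and 0.75), with SIRT2 at 0.37, 1.04 and 1.70 and SIRT4 at 1.08, 1.05 and 1.97. Histone chaperones, which load histones onto DNA, were mostly lower, with 14, 12 and 14 of 17 lower in the order of the comparisons and 3, 2 and 1 higher. CHAF1A (-2.02, -1.81 and -1.90), CHAF1B (-2.64, -2.42 and -1.07) and ASF1B (-2.86, -1.20 and -1.49), which act at the replication fork, were among them. DNA methylation genes had 4 higher and 6 lower of 11 with YAP/TAZ siRNA, 3 and 7 with BRD siRNA, and 1 and 9 with JQ1. UHRF1, which brings the maintenance methyltransferase to new DNA, changed by -2.86, -2.85 and -2.42, and DNMT1, that methyltransferase, by -1.48, -0.95 and -0.85. The de novo enzyme DNMT3A was higher with YAP/TAZ siRNA (1.41) and lower with BRD siRNA (-0.95) and JQ1 (-0.75). These lists moved beside the proliferation markers, whose part was not tested.

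Other histone methyltransferases and COMPASS subunits, 32 genes, had 9 higher and 17 lower with YAP/TAZ siRNA, 10 and 14 with BRD siRNA, and 8 and 18 with JQ1, with the H3K9 enzymes SUV39H1 (-1.09, -1.27 and -1.87) and SUV39H2 (-1.92, -0.9995 and -1.23) among the lower ones. Other demethylases, 6 genes, had 2 higher and 2 lower, 2 and 4, and 1 and 4 in the same order. PHF2, the partner of ARID5B, fell in each (-0.96, -0.67 and -1.75). Other acetyltransferases and their partners, 22 genes, had 12 higher and 8 lower, 8 and 10, and 4 and 10. HAT1, which acetylates new H4, fell in each (-1.43, -0.83 and -0.99), and EP300 rose (0.54, 0.44 and 0.81). NuRD, Sin3 and CoREST partners, 21 genes, had 9 higher and 9 lower, 7 and 11, and 6 and 8. The CoREST subunit RCOR2 was higher in each comparison (1.67, 0.54 and 0.62). ISWI and INO80 family remodellers, 17 genes, had 8 higher and 8 lower, 4 and 10, and 6 and 9, among them YEATS4 (-1.55, -1.39 and -0.72). None of these list counts was tested against the shares of all genes given above.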

How the data were processed

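Per the labels' protocols, total RNA was depleted of ribosomal RNA and made into stranded libraries. Tools in the submitters' processing notes are TopHat2 2.0.5, HTSeq 0.6.0, CASAVA 1.8.4, R 3.0.0 and edgeR, and the build is hg19. For their order, the annotation and the use of strand in counting, the sources used here gave nothing. The signal deposited by the authors is RPM of an effective library size: the columns summed to 903627 to 1098052, not to 1 total, so the CPM assumed when the tests were planned was replaced by a scaled signal, with the test unchanged. Whole reads were recovered for 100% of values (tolerance 0.01), 1 read being worth 0.0276 to 0.0602, so counting error is small except for the genes at the lowest levels. There were 0 columns of other samples.

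Groups came from the sample titles. Values were tested as log2(value + 1) with limma 3.58.1 in R 4.3.3, in 1 model of 7 groups over 14 libraries (7 residual and 13.2 prior degrees of freedom), on the 13674 genes with at least 1 in at least 2 libraries. All 88 members passed this filter. P-values are two-sided, with Benjamini-Hochberg adjustment over all genes tested. Replicates differed by more than sampling noise (chi-square per gene 3.43 to 10.4). The YAP/TAZ comparison was also run with limma and edgeR on simulated reads. The other comparisons, DESeq2 and the alternative scalings were not tested on simulated data.

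The members, families and gene lists were chosen with earlier results of these data known. Named in full were the 10 largest called rises and falls of each of the 3 comparisons, the 6 each way between mixes and between the JQ1 and BRD effects, and members at the lowest levels. The text adds all other members by family, genes from the other lists, and YAP/TAZ against BRD siRNA and DMSO against control siRNA, chosen after their values were seen. Alternatives were other pseudocounts, filters and scalings, edgeR 4.0.16 and DESeq2 1.42.0 on recovered reads, a replicate block, single mixes, DMSO as the reference and leaving out each library. Protein sequences were not used here, and 1 member is counted in the totals but is not reported here by itself.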

Additional observations from a re-analysis of the deposited data

Results flagged for a closer look

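For 9 genes, BRD siRNA and JQ1 gave called changes of opposite direction, and the difference between the effects passed the test itself (limma, JQ1 against DMSO minus BRD siRNA against control siRNA). The difference was 1.81 for HDAC11 (adjusted p 7.58e-09), 1.07 for HDAC6 (3.94e-09), 0.82 for CBX5 (7.65e-09), 0.68 for KAT6B (7.44e-06), 0.67 for SMARCA1 (2.28e-07), 0.59 for KAT8 (0.000542) and 0.52 for KDM2B (1.05e-05). These 7 genes were lower with BRD siRNA and higher with JQ1. It was -0.52 for SMARCA5 (1.71e-05) and -1.06 for SETD7 (1.57e-09), which were higher with BRD siRNA and lower with JQ1. Opposite calls were not particular to these families. Of the members higher with BRD siRNA 6.9% were lower with JQ1, against 14.2% over all genes. Of those lower with BRD siRNA 16.3% were higher with JQ1, against 15% over all genes. For KAT8, SMARCA1, KAT6B, KDM2B, SMARCA5 and HDAC11 1 of the calls or both were lost when a single library was left out, as the report gives, while the difference itself was tested in the full set of libraries. The BRD call was not passed with mix B alone for HDAC6 (-0.12, limma adjusted p 0.121), CBX5 (-0.06, adjusted p 0.33) and KAT8 (0.09, adjusted p 0.429), and with mix A alone for HDAC11 (-0.12, adjusted p 0.396) and KAT6B (-0.15, adjusted p 0.0888). The times of 24 h and 72 h and the controls differ between the effects, and SETD7 and HDAC6 changed sign with BRD siRNA when DMSO was the reference (-0.13 and 0.20). CBX5 was lower in DMSO than with control siRNA (-0.36), and its JQ1 libraries lay just above those of control siRNA.

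The antisense row KDM4A-AS1, which the rule left out, had a mean of 2.78 in JQ1 (2.89 and 2.67), above the highest control library (2.41). With YAP/TAZ mix 1 it stood at 0.89 and 0.77 and with mix 2 at 1.23 and 1.33. BRD mix A replicate 1, at 2.80, was also above every control, while the other BRD libraries stood at 2.17, 2.18 and 1.71. The use of strand in counting is not known, so its reads and those of KDM4A on the other strand may not be separate.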

How the results depend on the processing

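The counts of the 88 genes called higher or lower stayed within 1.5 times their value in all 8 comparisons under every alternative run. With YAP/TAZ siRNA they were 40 to 47 higher and 24 to 30 lower over settings other than left-out libraries, with BRD siRNA 28 to 36 and 35 to 44, and with JQ1 29 to 34 and 32 to 38. Leaving out each library gave 40 to 42 and 22 to 26, 28 to 29 and 38 to 45, and 27 to 31 and 29 to 32. On recovered reads edgeR called 10616, 10160 and 10330 of all genes and DESeq2 10006, 9603 and 9793, against 10793, 10279 and 10104 by limma. Another scaling moved the median of all genes by less than 0.1 on the log2 scale.

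Single genes changed sign with DMSO as the reference, in a single mix, or both. For YAP/TAZ siRNA these were CHD7 (0.21), ARID3A (0.38), SETD7 (-0.59) and SMARCD3 (-0.35) against DMSO, ARID3A (0.079) and SMARCA1 (-0.27) with mix 1 alone, and KAT2B (-0.16), HDAC4 (-0.17), SMARCA4 (0.10) and SMARCA5 (0.0048) with mix 2 alone. For BRD siRNA they were SETD7 (-0.13), CHD7 (0.60), CHD8 (0.091), HDAC6 (0.20) and SETDB1 (0.38) against DMSO, SETD3 (0.024) and HDAC7 (0.0094) with mix A alone, and KAT8 (0.088) and SETDB1 (0.093) with mix B alone. The cause was not tested, beyond the fewer libraries or other reference that each alternative uses.

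The replicate numbers did not pair the libraries: the correlation of replicate differences between groups ran from -0.37 to 0.25 over 21 pairs of groups (median -0.0106). With the replicate number as a block, 42 were higher and 25 lower with YAP/TAZ siRNA, 29 and 43 with BRD siRNA, and 33 and 36 with JQ1. Of the named genes, ARID3A with YAP/TAZ siRNA lost its call there (-0.25, adjusted p 0.0539). With 2 libraries a group, small changes are imprecise, and KDM4D, ARID3A, SMARCD3 and KDM8 rest on few reads.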
